A study of Mus musculus with 2 samples.

Results

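Glucose is broken down to lactate and stored as glycogen by a short series of enzymes, most of which are encoded by 2 or more genes with different tissue distributions. The 39 genes described here cover that series: transport of glucose and lactate, the glycolytic steps, the enzymes that make and break down glycogen, and the enzymes particular to gluconeogenesis. They were chosen by symbol, and all 39 were found among the 55348 gene entries of both count tables. RNA-seq was done on mouse hearts at E13.5, strain 129sv, with 1 library from wild-type hearts and 1 from Lmna H222P/H222P hearts. Lmna encodes lamin A and lamin C of the nuclear lamina, and H222P is a missense mutation that models laminopathy of heart and muscle. The labels give it as a homozygous genotype and name no driver that would limit it to a cell type. The labels did not say how many hearts, or of which sex, were in each library. With 1 library per genotype there was no test of the genotypes and no replicate check: every difference below is between these 2 libraries, and the 95% intervals cover counting error only.

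In glycolysis, a hexose is phosphorylated, split and oxidised to pyruvate, and lactate dehydrogenase then interconverts pyruvate and lactate. The embryonic heart is known to draw much of its energy from glycolysis and lactate and to hold large glycogen stores, and it takes up fatty acid oxidation mainly around and after birth. Striated muscle expresses particular genes for several steps (Pfkm, Pgam2, Eno3, Pygm, and Slc2a4, which fat also uses). Beside them it has genes that are used in most cells (Pfkl, Pgam1, Eno1, Ldha, Slc2a1, Gys1). Liver has a further set (Pklr, Slc2a2, Gys2, Pygl, Fbp1, Pck1), of which Pklr is also used in red cell precursors.

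Levels are given as CPM, the reads of a gene divided by the TMM-scaled library size, with gene coordinates on mm10. A gene is called higher or lower at a difference of at least 1.5-fold between the libraries and a mean of at least 1 CPM. The wild-type library held 32669225 reads on genes and the H222P library 25120790, so that 3 reads, the floor for a count of 0, correspond to 0.0968 and 0.113 CPM. Lmna itself gave 2068 reads in wild type against 1865 in H222P. A change of an amino acid cannot be read from gene counts, so this is no check of the genotype labels. All 14 cardiomyocyte markers were present in both libraries, but their summed level was 31051 CPM in wild type and 16184 CPM in H222P, with 11 of 14 lower and 0 higher. The libraries also differed in RNA of other cell types: 14 of 14 hepatocyte markers were higher in H222P (sum 36.2 and 6256 CPM, none at 0 reads in either library), as were 10 of 11 red cell precursor markers (443 and 2711 CPM, none at 0). Lung and gut markers went both ways, with the lung surfactant gene Sftpc at 211 and 1 reads and the stomach gene Barx1 at 8 and 1234. In bulk RNA, fewer cells of a type and less RNA per cell cannot be told apart.

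Of the 39 genes, 36 reached a mean of 1 CPM, and 25 of these 36 had a lower level in H222P by any amount (20 with total counts in place of TMM). The 9 that were lower were Ldhb, Pgam2, Eno3, Pygm, Aldoc, Pygb, Pfkp, Pfkm and Eno2. The 3 that were higher, Gys2, Slc2a2 and Pklr, are the liver-type genes for glycogen synthase, glucose transport and pyruvate kinase. The other 24 lay within 1.5-fold, 8 above and 16 below a ratio of 1. The 9 lower genes were 25% of the 36, against 11.4% of 14716 genes called lower, and the 3 higher genes 8.33%, against 10.9% called higher. At 2-fold, 1 gene was lower (Ldhb, 4.35% of all genes) and the same number as before, 3, higher (5.95% of all genes). The median log2 ratio of the 36 genes was −0.25, beside −0.01 for all genes. With total counts the median of all genes moved to 0.15, and 6 of the 36 genes were then lower and 4 higher, beside 7.74% and 15.2% of all genes. Fbp1, Fbp2 and Pck1 did not reach 1 CPM in the mean. No member had 0 reads in either library.

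**Figure D1:**
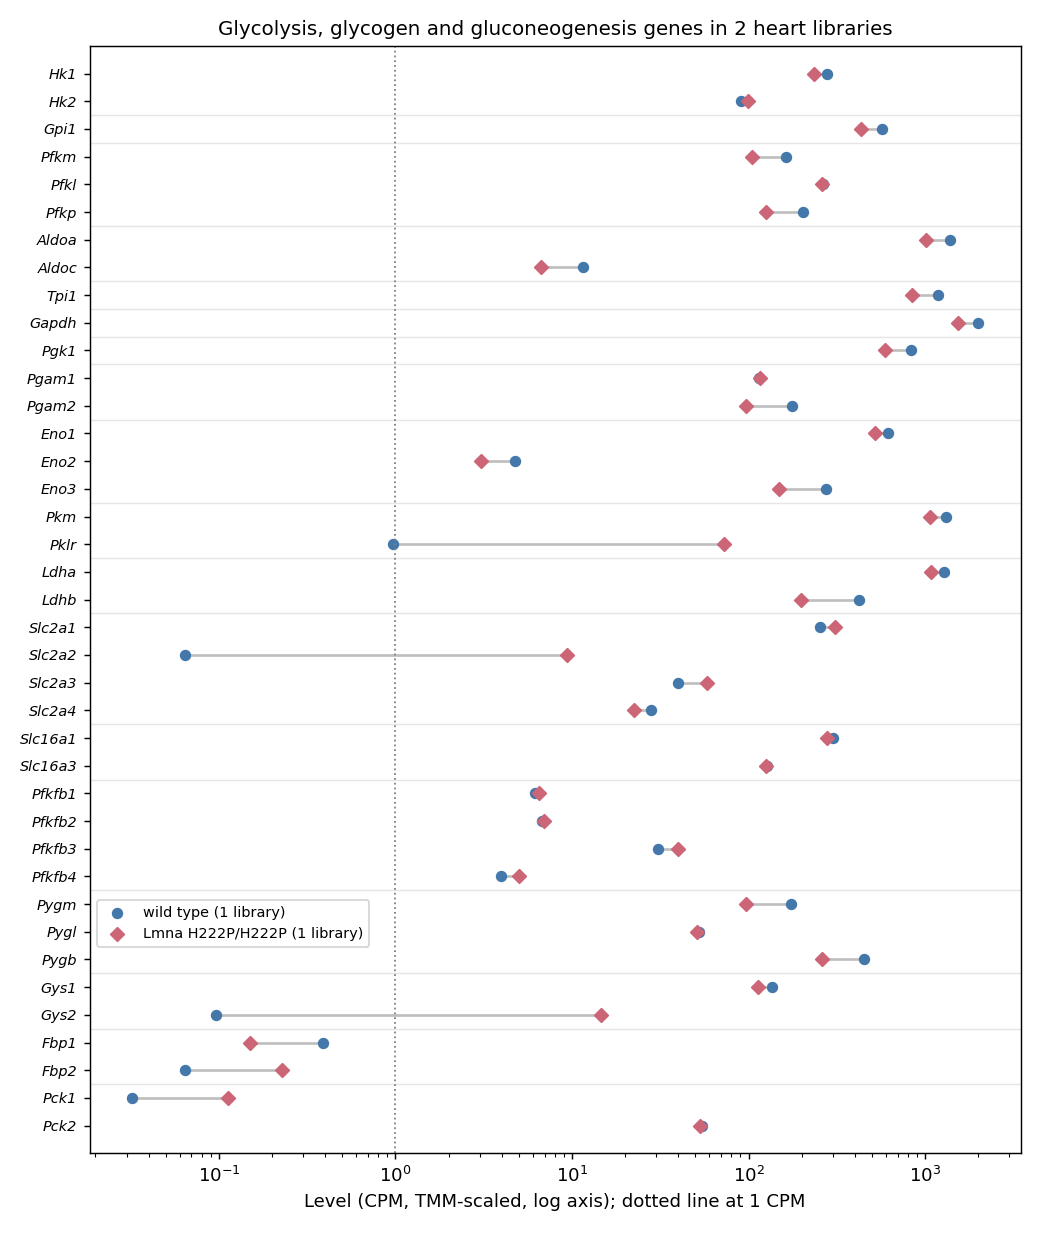
Level of each of the 39 genes in CPM on a log axis, with circles for the wild-type library, diamonds for the H222P library, a grey line joining both values of a gene and pale lines separating enzyme steps. Pklr, Slc2a2 and Gys2 stand far to the right in H222P, whereas most other genes above 1 CPM differ by less than 1.5-fold.

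The trunk of glycolysis, from glucose-6-phosphate to pyruvate, includes 4 steps with 1 gene each in the set. Gpi1, which converts glucose-6-phosphate to fructose-6-phosphate, had 568 CPM in wild type and 436 in H222P. Tpi1, which interconverts the triose phosphates, had 1177 and 840 CPM. Gapdh, the oxidative step and a common reference gene, had 1999 and 1528 CPM, a log2 ratio of −0.39 (95% interval −0.41 to −0.37). Pgk1, which makes the first ATP of the pathway, had 832 and 596 CPM. All 4 lay within 1.5-fold, with log2 ratios between −0.49 (Tpi1) and −0.38 (Gpi1), and stayed below 0 with DESeq2 size factors and with total counts. Gapdh was the most abundant of the 39 genes per kb in both libraries, whether length was taken as all annotated exons or as the longest principal transcript. Aldoa, the main aldolase of muscle and of most embryonic cells, was close to these genes at 1375 and 1012 CPM (log2 ratio −0.44). Aldoc, the aldolase enriched in brain, was lower in H222P at 11.6 and 6.65 CPM, 1.74-fold (1.45 to 2.10). Of 8 measured genes on the neuron marker list 5 were higher and 0 lower (summed level of the 12 listed 45.7 and 72.9 CPM, none at 0 reads). The 5 include Sox10, a gene of neural crest and glia, with 25 and 224 reads. The most abundant gene of the list, Gap43, with 771 and 583 reads, had a log2 ratio of −0.18 (−0.33 to −0.02). The part of neuronal RNA in the Aldoc value was not tested.

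Glucose enters glycolysis through hexokinase and is committed at phosphofructokinase. Hk1, the widely expressed hexokinase, had 280 CPM in wild type and 235 in H222P. Hk2, the insulin-responsive form of muscle and fat, had 90.1 and 99.7 CPM. The ratio of Hk2 to Hk1 reads was thus 1.32-fold larger in H222P (1.24 to 1.40), a change of ratio that needs neither scaling between libraries nor gene length. Phosphofructokinase is a tetramer of muscle, liver and platelet subunits. Pfkm, the muscle subunit (chromosome 15, 98092589 to 98132451), had 163 and 104 CPM, 1.56-fold lower (1.49 to 1.63). Pfkp, the platelet subunit (chromosome 13, 6579768 to 6648777), had 205 and 126 CPM, 1.62-fold lower (1.55 to 1.69). Pfkl, the liver subunit, had 263 and 260 CPM, a log2 ratio of −0.02 that became 0.13 with total counts. Pfkm and Pfkp therefore shifted together against Pfkl: the Pfkl to Pfkm ratio was 1.54-fold larger in H222P (1.45 to 1.63) and the Pfkl to Pfkp ratio 1.60-fold larger (1.51 to 1.68), whereas the interval of the Pfkm to Pfkp change included 1 (0.976 to 1.11). With total counts Pfkm and Pfkp fell short of 1.5-fold, at log2 ratios of −0.49 and −0.54.

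**Figure D2:**
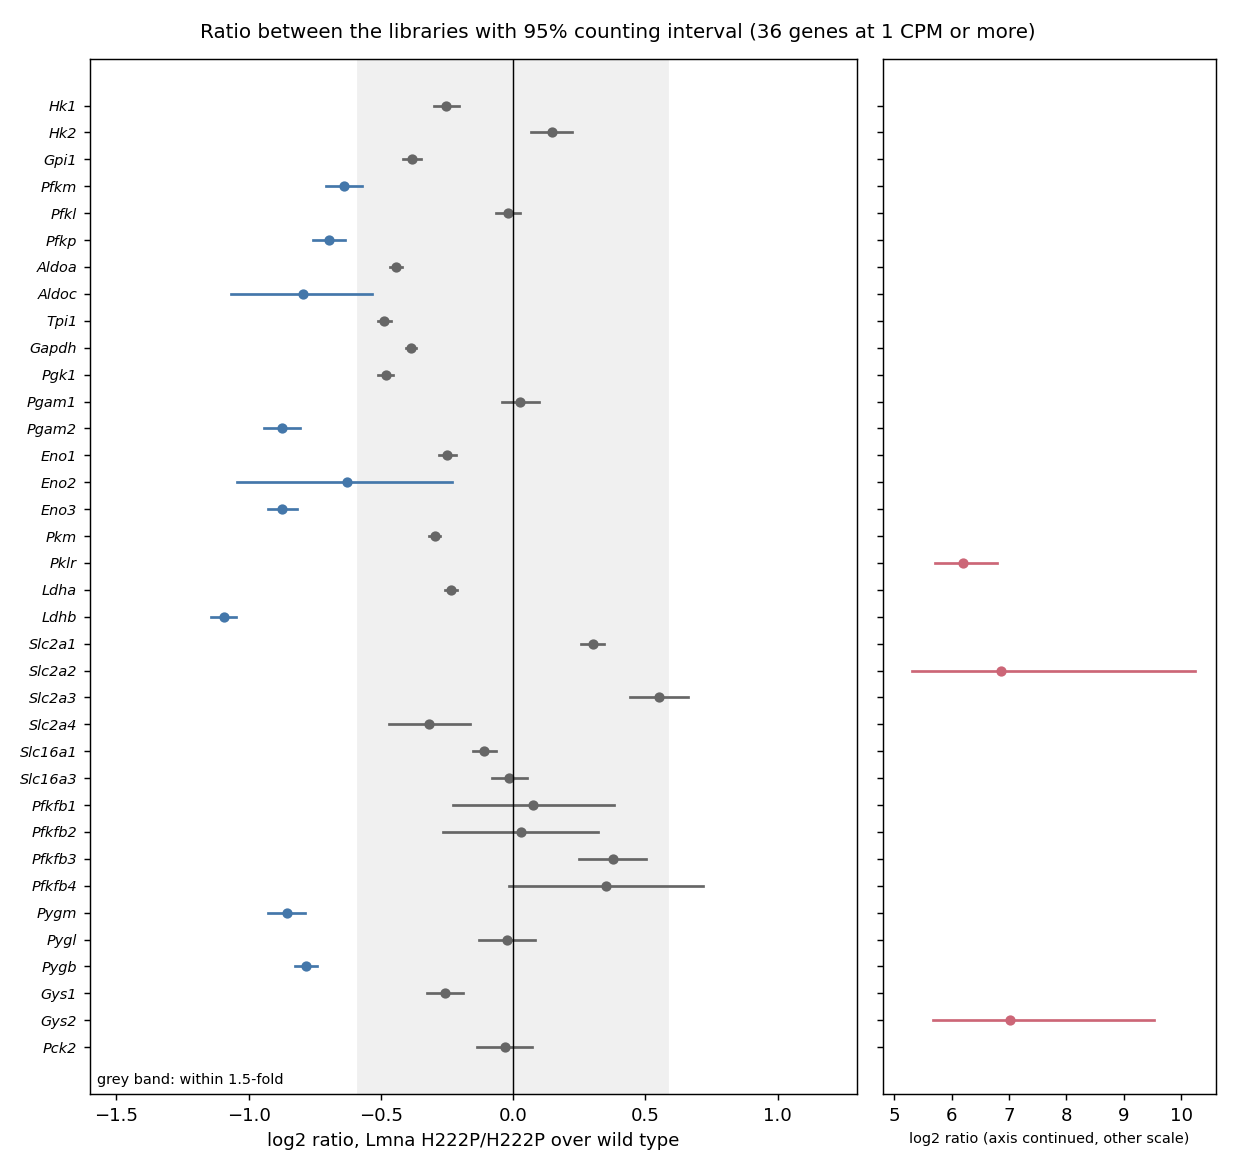
Log2 ratio of H222P over wild type for the 36 genes at 1 CPM or more, points with 95% counting intervals, blue for lower and red for higher by at least 1.5-fold, grey band for ratios within 1.5-fold, and a right panel that continues the axis at another scale. The blue points are the 9 lower genes, and only Pklr, Slc2a2 and Gys2 appear in the right panel.

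The promoters of the lactate dehydrogenase and phosphoglycerate mutase pairs are shown as examples of pairs in which 1 gene was lower in H222P and its partner was not called. The enolase pair Eno3 and Eno1 is another and is not shown. Each line holds the 250 bases before the RefSeq start of the gene, 5′ to 3′ on the gene's strand (GRCm38.p6, the assembly of mm10), in lower case with every match to ACGTG or CACGTG on either strand in capitals. ACGTG is the core of the element bound by hypoxia-inducible factor, a known regulator of glycolysis genes, and CACGTG is the E-box that contains it. TATAAA and CTAAAAATA, 1 form of the MEF2 site of muscle genes, were also searched and had no match in these 4 sequences. Other forms of the MEF2 site were not searched, so these sequences may hold one. The Pgam2 sequence, for example, holds tatttttaa, which differs by 1 letter from CTAAAAATA read on the other strand. The Ldha sequence lies at chr7:46845554-46845803 (plus strand) and is the first of 2 starts listed for the gene. The others lie at chr6:142507958-142508207 (Ldhb, minus strand), chr19:41911621-41911870 (Pgam1, plus strand) and chr11:5803797-5804046 (Pgam2, minus strand).
Ldha: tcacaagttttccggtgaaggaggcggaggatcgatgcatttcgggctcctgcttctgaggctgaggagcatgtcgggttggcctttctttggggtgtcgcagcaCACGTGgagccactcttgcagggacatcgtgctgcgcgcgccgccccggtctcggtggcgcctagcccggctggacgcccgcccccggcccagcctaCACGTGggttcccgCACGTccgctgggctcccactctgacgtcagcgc
Ldhb: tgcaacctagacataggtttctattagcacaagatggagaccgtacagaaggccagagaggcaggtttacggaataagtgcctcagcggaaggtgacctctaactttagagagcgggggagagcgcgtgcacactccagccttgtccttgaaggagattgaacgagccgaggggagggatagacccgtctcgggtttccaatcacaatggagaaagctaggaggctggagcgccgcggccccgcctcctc
Pgam1: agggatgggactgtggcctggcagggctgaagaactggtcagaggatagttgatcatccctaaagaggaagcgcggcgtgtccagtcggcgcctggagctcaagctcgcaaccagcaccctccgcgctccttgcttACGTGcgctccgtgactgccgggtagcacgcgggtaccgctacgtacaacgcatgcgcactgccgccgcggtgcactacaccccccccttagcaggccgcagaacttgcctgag
Pgam2: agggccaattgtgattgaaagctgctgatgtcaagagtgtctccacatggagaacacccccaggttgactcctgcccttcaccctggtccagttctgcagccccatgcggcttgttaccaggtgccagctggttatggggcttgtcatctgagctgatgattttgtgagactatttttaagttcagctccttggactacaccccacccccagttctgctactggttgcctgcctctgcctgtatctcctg

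In these windows the genes that were not called, Ldha and Pgam1, held ACGTG and the genes that were lower, Ldhb and Pgam2, did not. The other start of Ldha held none either. RefSeq promoters were found for 36 of the 39 genes, with 54 starts in all. In windows from 250 bases before to 50 after the start, ACGTG was present in 23 of 54 (42.6%), against 19.6% of 32851 promoters in the table. CACGTG, each match of which also holds ACGTG on both strands, was present in 6 of 54 (11.1%, against 7.15%). TATAAA was present in 4 of 54 (7.41%, against 13.6%), among them the second of 2 starts of Pklr. CTAAAAATA was present in 0 of 54 and in 0.517% of all promoters. In the enolase pair, neither Eno1, which was not called, nor Eno3, which was lower, held ACGTG at any start. Pygm, Pygb, Pfkm and Aldoc, which were lower, also held ACGTG at 1 or more of their starts, so the match did not separate lower genes from the rest. A match is a run of letters and no evidence of binding, and no match says only that these letters are not in the window.

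Phosphoglycerate mutase and enolase each have a muscle gene that was lower in H222P beside a widely used gene that was not called. Pgam2, the muscle mutase (chromosome 11, 5801640 to 5803733), had 177 CPM in wild type and 96.7 in H222P, 1.83-fold lower (1.75 to 1.92). Pgam1, the widely expressed mutase, had 114 and 116 CPM. Pgam2 held 60.9% of the reads of the pair in wild type (59.9 to 61.9) and 45.5% in H222P (44.1 to 46.8), so the Pgam1 to Pgam2 ratio was 1.87-fold larger (1.75 to 2.00). Per kb, Pgam2 remained the more abundant gene in both libraries, at 78.6% and 66.3% of the pair by exon length and 76.7% and 63.8% by principal transcript. Eno3, the muscle enolase (chromosome 11, 70657202 to 70662513), had 274 and 149 CPM, 1.83-fold lower (1.76 to 1.90). Eno1, the enolase of most cells, had 619 and 521 CPM, a log2 ratio of −0.25 (−0.28 to −0.22), and the Eno1 to Eno3 ratio was 1.54-fold larger in H222P (1.48 to 1.61). Which enolase was more abundant in wild type depended on the length used: Eno3 held 57.6% of the step by exon length and 36.3% by principal transcript. Eno2, the neuronal enolase, rested on 147 and 81 reads and was 1.55-fold lower (1.18 to 2.06), but with total counts its log2 ratio of −0.48 fell short of the threshold.

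Several of these genes have near-identical copies, whose reads may be placed on either entry or left out as multiply mapped. The copies of Eno1 held 18.3% of its reads in wild type and 31.8% in H222P. The protein-coding entry Eno1b, 99.4% identical over 1302 bases, had 2830 reads in wild type and 4337 in H222P, and the processed pseudogene Gm4735, 99.6% identical, had 653 and 33. Adding the 9 copies found moved the log2 ratio of Eno1 from −0.25 to −0.09, outside its counting interval. The enolase shares and the Eno1 to Eno3 ratio given above leave these copies out, and their intervals do not cover this. For the other 10 genes with copies the ratio stayed within its counting interval, although the copies held 11.6% and 12.1% of the reads of Pgam1 and 5.53% and 5.76% of those of Ldhb. Gapdh had 220 matching entries in the table, which together held 1.45% and 2.15% of its reads. These shares include the protein-coding gene Peli2, with a match over 877 bases and 357 and 412 reads. The reads of Peli2 need not come from the matched stretch.

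At the end of the pathway, Ldhb held a smaller share of the reads of its step in H222P, and Pklr a larger share. The levels of their partners Ldha and Pkm were themselves lower, within 1.5-fold. Ldhb, the heart-type subunit (chromosome 6, 142490249 to 142507957), had 13100 reads in wild type and 5245 in H222P (423 and 198 CPM), 2.14-fold lower (2.07 to 2.20). Ldha, the muscle-type subunit used in most fetal tissues, had 39417 and 28608 reads (1272 and 1080 CPM), a log2 ratio of −0.24 (−0.26 to −0.21). Ldhb held 24.9% of the reads of the pair in wild type (24.6 to 25.3) and 15.5% in H222P (15.1 to 15.9), and the Ldha to Ldhb ratio was 1.81-fold larger (1.75 to 1.88). Per kb, Ldha was the more abundant of the pair in both libraries by either length. Pkm, the pyruvate kinase of muscle and of proliferating cells, had 1311 and 1068 CPM, and gene counts do not separate its M1 and M2 splice forms. Pklr, the pyruvate kinase of liver and red cells (chromosome 3, 89136142 to 89146784), had 30 reads in wild type and 1911 in H222P (0.968 and 72.2 CPM), 73.3-fold higher (52.0 to 111). Its share of pyruvate kinase reads was 0.0738% in wild type (0.0498 to 0.105) and 6.33% in H222P (6.06 to 6.61). Beside it, the red cell factor Klf1 had 20 and 1657 reads and the hepatocyte gene Alb 81 and 83174. The 11 red cell precursor markers had log2 ratios from 0.56 to 7.08 (median 4.33), and the 14 hepatocyte markers from 3.91 to 10.2 (median 7.30). The part of such cells in the Pklr value was not tested. Hcn3 on the other strand overlaps part of the Pklr exons and had 25 and 35 reads, and the log2 ratio of Pklr was 6.20 both in the strand-specific and in the unstranded counts.

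**Figure D3:**
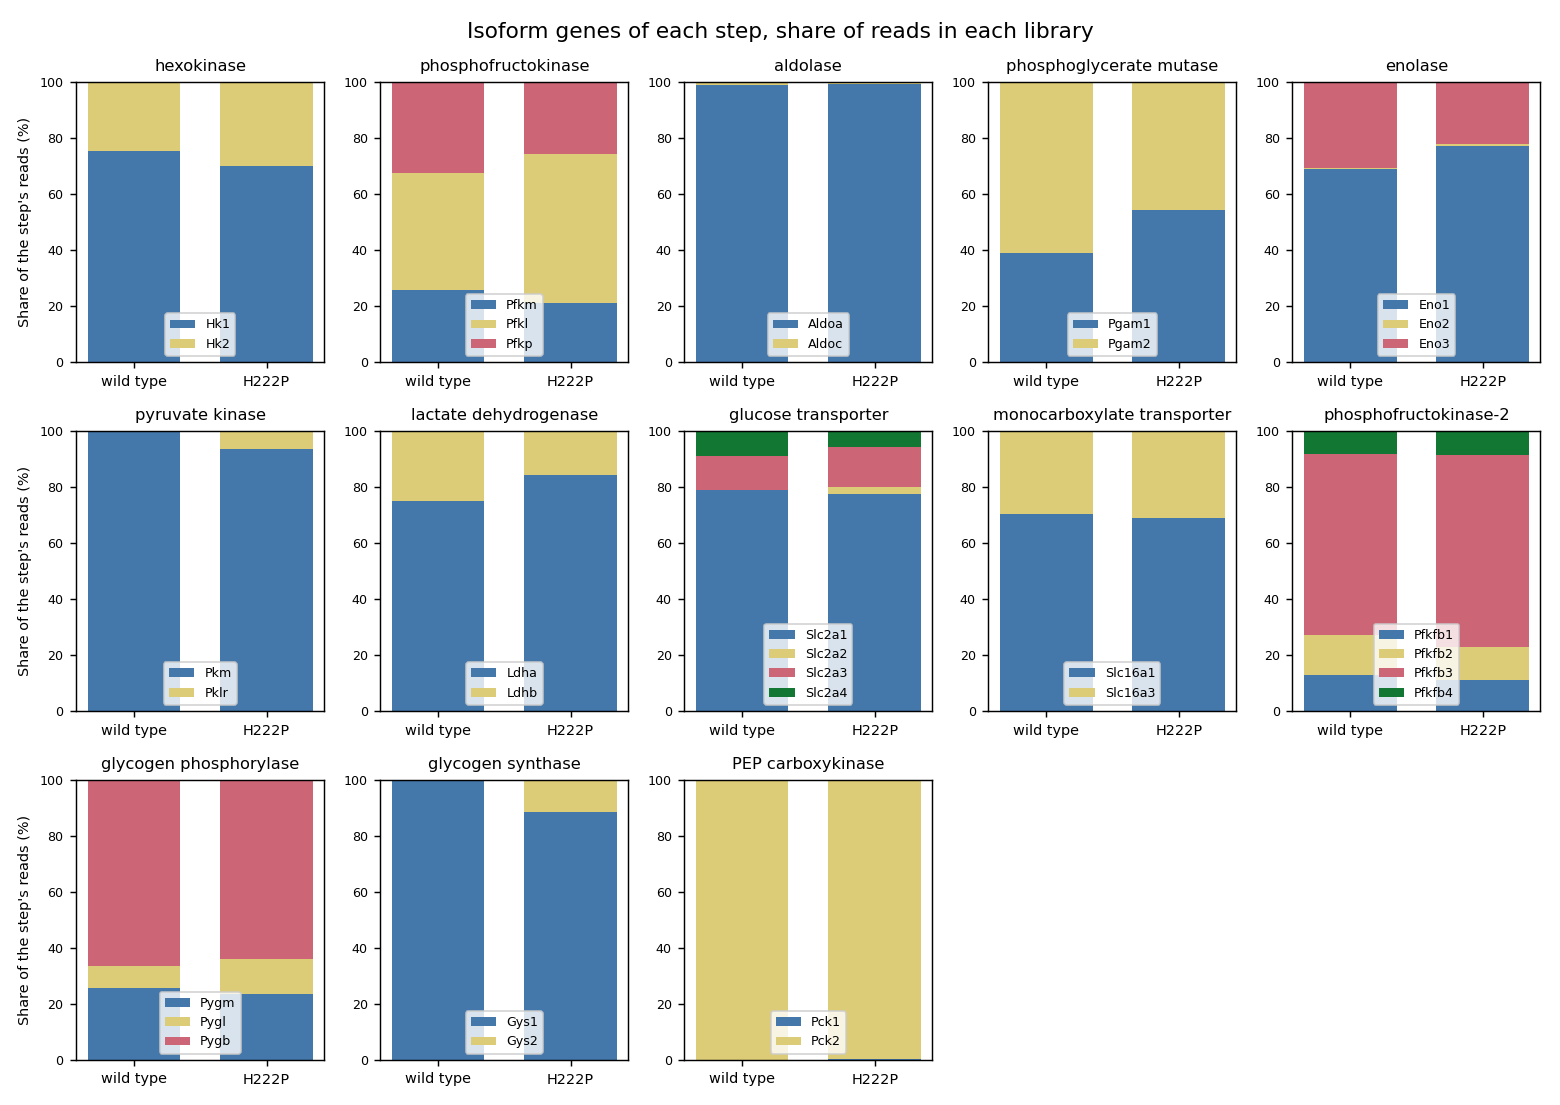
Stacked bars of the share of reads held by each isoform gene within an enzyme step, from 0 to 100%, for the wild-type library on the left and the H222P library on the right of each panel, with fructose bisphosphatase left out for its low counts. The bars for phosphofructokinase, phosphoglycerate mutase, enolase, lactate dehydrogenase, pyruvate kinase and glycogen synthase differ visibly between the libraries, whereas those for aldolase and the monocarboxylate transporters nearly coincide.

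Pairs of isoform genes could be compared in 14 steps, 30 pairs in all. For 11 pairs the whole interval of the change in their ratio lay beyond 1.5-fold, for 8 more it excluded 1, and for 11 it included 1. These pairs overlap, since a gene enters every pair of its step. The first 11 include every pair with Slc2a2, Pklr or Gys2, which had 2, 30 and 3 reads in wild type. No share over other gene pairs was computed beside these counts. Of the muscle genes, Pfkm, Pgam2, Eno3 and Pygm were called lower, while Slc2a4 was not. Gys1, used in muscle and most tissues, was not called either. The muscle genes were measured in libraries whose cardiomyocyte markers had a median log2 ratio of −0.98 (Myh7 −1.07, Actc1 −0.67, Nkx2-5 −0.47). All 14 of these markers lay between −1.63 and −0.17. Endothelial markers had a median of −0.66 (7 of 10 lower, 0 higher). Fibroblast and mesenchyme markers had a median of −0.92 (7 of 10 lower, 1 higher). The part of cardiomyocyte RNA in the values of the muscle genes was not tested. Markers of skeletal muscle, which uses the same isoforms, went both ways. Of 7 measured, 3 were higher (Myog, Myh3 and Tnnt3) and 1 was lower (Myh8, with 128 and 25 reads). The summed level of the 12 listed was 205 and 221 CPM, most of it from Acta1 (177 and 183 CPM), which the fetal heart also expresses. The myogenic factors were sparse, with Myod1 at 6 and 24 reads, and Myf5 and Pax7 at 0 reads in wild type and 8 each in H222P. The part of skeletal muscle RNA was not tested.

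No glucose or lactate carrier was called lower, and of the 6 only Slc2a2 was called higher. Slc2a1 (GLUT1), the main glucose transporter of the fetal heart, had 252 CPM in wild type and 311 in H222P, a log2 ratio of 0.30 (0.26 to 0.34). Slc2a3 (GLUT3), a high-affinity transporter of neurons, placenta and embryo, had 39.6 and 58.0 CPM, a log2 ratio of 0.55 (0.44 to 0.66) that passed 1.5-fold (0.70) with total counts. Slc2a4 (GLUT4), the insulin-regulated transporter of muscle and fat, had 28.1 and 22.5 CPM, a log2 ratio of −0.32 (−0.47 to −0.17). The Slc2a1 to Slc2a4 ratio was 1.53-fold larger in H222P (1.38 to 1.71). Slc2a2 (GLUT2), the transporter of hepatocytes and pancreatic beta cells (chromosome 3, 28697903 to 28731359), had 2 reads in wild type and 248 in H222P, 116-fold higher with a wide interval (39.7 to 1204). Together the 4 glucose transporters had log2 ratios of 0.32 with TMM, 0.30 with DESeq2 size factors and 0.48 with total counts. Slc16a1 (MCT1) and Slc16a3 (MCT4), which move lactate and pyruvate across the membrane, had log2 ratios of −0.11 and −0.01, both above 0 with total counts (0.04 and 0.14). Bsg, the chaperone of both carriers, had 503 and 469 CPM, and Emb, an alternative chaperone, was 1.58-fold higher (1.43 to 1.75).

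The 4 bifunctional enzymes that make and degrade fructose-2,6-bisphosphate, the activator of phosphofructokinase, lay within 1.5-fold. Pfkfb3, the form with strong kinase activity found in proliferating cells, had 30.8 CPM in wild type and 39.9 in H222P, a log2 ratio of 0.38 (0.25 to 0.50). Pfkfb4, first known from testis, had 3.94 and 5.02 CPM, a log2 ratio of 0.35 (−0.01 to 0.72). Pfkfb1, of liver and skeletal muscle, had 192 and 173 reads, and Pfkfb2, the heart form, 210 and 183. Their log2 ratios of 0.08 and 0.03 had intervals that included 0.

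Of the genes for glycogen breakdown and synthesis, Pygb and Pygm were lower, Gys2 was higher, and Pygl and Gys1 were not called. Pygb, the brain-type phosphorylase and the most abundant of the 3 in both libraries per kb by either length (chromosome 2, 150786735 to 150831758), had 449 CPM in wild type and 261 in H222P, 1.72-fold lower (1.67 to 1.77). Pygm, the muscle phosphorylase (chromosome 19, 6384399 to 6398459), had 174 and 96.2 CPM, 1.81-fold lower (1.73 to 1.90). Pygl, the liver phosphorylase, had 52.1 and 51.3 CPM, a log2 ratio of −0.02 (−0.13 to 0.08). The change of the Pygb to Pygm ratio had an interval that included 1 (0.996 to 1.11), whereas the Pygl to Pygm ratio was 1.78-fold larger in H222P (1.64 to 1.94). All 3 phosphorylases together had a log2 ratio of −0.73 (−0.76 to −0.69), the lowest of the 18 steps under TMM, DESeq2 size factors and total counts. Gys1, the glycogen synthase of muscle and most tissues, had 136 and 114 CPM, a log2 ratio of −0.26 (−0.33 to −0.19). Gys2, the liver synthase (chromosome 6, 142422613 to 142473109), had 3 and 387 reads, 129-fold higher (51.3 to 735), and held 0.0711% of synthase reads in wild type (0.0147 to 0.208) and 11.4% in H222P (10.3 to 12.5). As for Pklr, the part of hepatocyte RNA in the values of Gys2 and Slc2a2 was not tested.

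Among 24 other glycogen genes on a list of the pathway, 23 were measured, of which 8 were lower and 0 higher, with a median log2 ratio of −0.51, beside 11.4% of all genes lower. These counts depended on the scaling: 4 were lower with total counts (median −0.36, 7.74% of all genes lower) and 11 with DESeq2 size factors (12.3% of all genes lower). The 8 included Gyg, which encodes glycogenin, the primer of glycogen chains (782 and 507 CPM, 1.54-fold, 1.51 to 1.57) and Ugp2, which makes UDP-glucose (330 and 199 CPM, 1.66-fold, 1.61 to 1.72). A further 5 were subunits that target protein phosphatase 1 to glycogen. Ppp1r3a, the striated muscle subunit, had the lowest ratio of the list, at 29.4 and 10.3 CPM, 2.85-fold lower (2.49 to 3.27). Ppp1r3c had 160 and 73.7 CPM, 2.17-fold lower (2.06 to 2.29), and Ppp1r3b and Ppp1r3d were 1.62-fold (1.53 to 1.72) and 1.75-fold lower (1.58 to 1.94). Ppp1r3e, at 95 and 45 reads, had a log2 ratio of −0.84, and Ppp1r3f, at 57 and 53 reads, was not called. With total counts Gyg, Ugp2 and Ppp1r3b fell short of 1.5-fold, at log2 ratios of −0.47, −0.58 and −0.55, and the 4 lower genes were Ppp1r3a, Ppp1r3c, Ppp1r3d and Ppp1r3e. Pgm2, a phosphoglucomutase, had the highest ratio of the list, with a log2 value of 0.27. The kinases Gsk3a and Gsk3b, which phosphorylate glycogen synthase, and the phosphorylase kinase subunits Phka1, Phka2, Phkb and Phkg2 all lay within 1.5-fold.

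**Figure D4:**
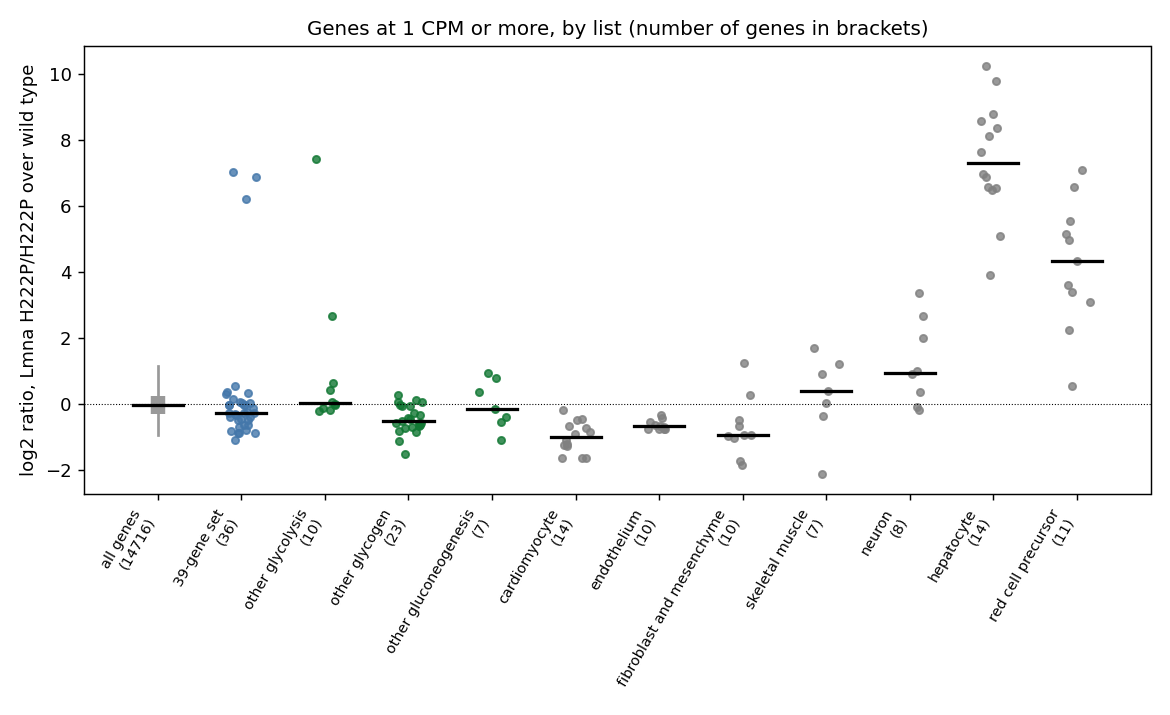
Log2 ratio of H222P over wild type for genes at 1 CPM or more in each list, with black lines for medians, a grey bar for the middle 50% and a thin line for the middle 90% of all genes, and any gene with 0 reads in a library drawn at its bound against the floor. The 36 genes have a median of −0.25 and 3 points above 6, the other glycogen genes a median of −0.51, the cardiomyocyte markers −0.98 and the hepatocyte markers 7.30.

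Of the gluconeogenic members, Pck1, Fbp1 and Fbp2 stayed under 1 CPM in both libraries, also in H222P with its abundant hepatocyte transcripts, and Pck2 was not called. Pck1, the cytosolic enzyme that makes phosphoenolpyruvate in liver and kidney, had 1 read in wild type and 3 in H222P. Fbp1, the fructose bisphosphatase of liver and kidney, had 12 and 4 reads, and Fbp2, that of muscle, 2 and 6, and the intervals of both log2 ratios (−3.45 to 0.36 and −0.67 to 5.15) included 0. G6pc, which releases free glucose from liver, had 0 and 1 reads. Differences in these 4 genes were not detectable at this depth. Pck2, the mitochondrial enzyme, was the one abundant gene of this branch among the 39, at 54.5 and 53.2 CPM, with a log2 ratio of −0.03 that became 0.12 with total counts. Among the 8 other gluconeogenesis genes of the list, 7 were measured, 2 of them higher and 1 lower (median −0.15), beside 10.9% and 11.4% of all genes. Total counts also gave 2 higher and 1 lower, with a median of −0.0005, beside 15.2% and 7.74% of all genes. Pcx, pyruvate carboxylase, was 1.72-fold higher (1.56 to 1.89) and Gpt2, a mitochondrial alanine aminotransferase, 1.91-fold higher (1.70 to 2.14). Mdh1, the cytosolic malate dehydrogenase and the most abundant of the 8, had 1524 and 718 CPM, 2.12-fold lower (2.09 to 2.16).

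Of 15 other glycolysis genes of the list, 10 were measured, with 3 higher, among them Emb and Hkdc1, 0 lower and a median of 0.04. Over all genes 10.9% were higher and 11.4% lower. With total counts 4 of the 10 were higher and 0 lower (median 0.19), beside 15.2% and 7.74% of all genes. Hkdc1, a hexokinase-like gene, had 17 reads in wild type and 94 in H222P. Bpgm, which makes the 2,3-bisphosphoglycerate of red cells, had 66.3 and 66.5 CPM, a log2 ratio of 0.01 (−0.09 to 0.10), beside red cell precursor markers with a median log2 ratio of 4.33. By step, the summed reads of all members had log2 ratios between −0.49 and −0.20 for every step from glucose-6-phosphate isomerase to lactate dehydrogenase, and all 10 of these stayed below 0 with total counts (−0.33 to −0.05). Hexokinase (−0.14), the monocarboxylate transporters (−0.08), glycogen synthase (−0.08) and PEP carboxykinase (−0.03) turned positive with total counts, at 0.01, 0.07, 0.07 and 0.12.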

How the data were processed

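RNA from E13.5 mouse hearts had been sequenced by the authors as 1 library per genotype, and the genotype label set the groups. The files hold raw read counts for each gene, as deposited. The submitters' processing notes name STAR, HTSeq, DESeq and mm10 with no version, and no source used here names the annotation. The reverse-strand count column was used, since it held 19.3 and 20.5 times the reads of the forward one. Summary lines that name no gene (17.2% and 18.0% of reads) were left out of library sizes, among them multiply mapped reads (5.37% and 6.09%), whose absence lowers genes with near-identical copies.

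TMM factors came from edgeR 4.0.16 in R 4.3.3. Log2 ratios used a prior count of 0.5 and exact Clopper-Pearson 95% intervals (scipy 1.17.1). Changes in the ratio of 2 isoform genes carry an exact conditional interval where a count was under 200, otherwise a normal interval on the log scale. Reads lack molecular identifiers, so intervals cover counting error and treat each read as independent. Loci, lengths and overlaps came from GENCODE M21 (GRCm38, the assembly of mm10), with 2 entries named Aldoa joined. Copies were found with blastn 2.17.0 at 90% identity or more over 100 bases or more. The calculations were tested on simulated data.

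The members and lists were chosen with earlier results of these data known. All members could be named, and of the other pathway lists the most abundant, highest and lowest genes and those at least 1.5-fold apart with a mean of 5 CPM or more. Some genes of these lists are counted but not reported by name here. Hkdc1, Bpgm, Myh3, Myh8, Tnnt3, Pax7, Sox10, Ppp1r3e, Ppp1r3f, G6pc and the glycogen kinases were named after their values were seen. Alternatives tried were size factors from DESeq2 1.42.0, total counts, other filters, a prior count of 5, the unstranded column, scaling without liver, red cell and globin genes, thinning, a 2-fold threshold, added copies, and other lengths, of which the principal transcript was added after the data were seen. Of the other marker lists, endothelium had 0 of 10 higher and 7 lower (3 lower with total counts), and fibroblasts and mesenchyme 1 and 7 of 10. Macrophages had 1 and 1 of 10, lung and gut 3 and 3 of 9, and kidney and adrenal 1 and 1 of 2 measured.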

Additional observations from a re-analysis of the deposited data

How the results depend on the processing

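With 1 library per genotype no replicate could be left out, and none of these alternatives bears on variation between hearts. No paired analysis was possible because each group has 1 library. Total counts in place of TMM moved the median log2 ratio of the measured members from −0.25 to −0.10, since that scaling moves all genes up. It took Pfkm, Pfkp and Eno2 out of the lower genes and put Slc2a3 among the higher. Eno2 was also lost when the wild-type library was thinned to the depth of the other. Without a filter on low counts 5 of 39 members were higher, because Fbp2 and Pck1, with 6 and 3 reads in H222P, were then counted. With Fbp1 also counted, 10 were lower. Over all 27300 genes with a read, 24.0% were then higher and 21.5% lower. At a 2-fold threshold 1 member in place of 9 was lower, beside 4.35% of all genes. Apart from total counts, no filter and the 2-fold threshold, the settings run for these counts gave 2 to 3 members higher, 8 to 9 lower and a median between −0.28 and −0.25. Over all genes these settings gave 7.11% to 10.9% higher and 9.25% to 12.3% lower. Among 245 ratios of single members recomputed, 34 left the counting interval of the main value. Of the 39 members 6 crossed a ratio of 1, none of them called. That 0 called values changed sign says little, since other scalings move all genes by less than the 1.5-fold a call needs. Depth limits Eno2, Pfkfb4 and the genes under 1 CPM, whose intervals are wide. Depth also limits the fold of Slc2a2 (39.7 to 1204) and Gys2 (51.3 to 735), with 2 and 3 reads in wild type.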
